A study of Mus musculus with 12 samples.

Results

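Receptors that bring lymphocytes into the gut wall, and the ligands they follow, were examined in mice whose ligand for one of these receptors, Gpr15l, was missing. The 10 genes were taken by name from the 54109 genes of the count table, after its Ensembl identifiers were matched to GENCODE M21 symbols. They are the receptors Gpr15, Ccr9, Ccr10 and Ccr6, the ligands Ccl25, Ccl28 and Ccl20, the integrin chains Itga4 and Itgb7, and the vessel addressin Madcam1. The choice was by name, not by level. RNA came from wild-type (WT) mice and from Gpr15l-/- mice (KO), all with acute colitis induced by Dextran Sulfate Sodium (DSS), a polymer that injures the colonic epithelium. Libraries were made of full colon and of LPMC, which usually stands for lamina propria mononuclear cells, the leukocytes released from the gut wall. With 2 tissues and 2 genotypes there were 4 groups (WT and KO in colon, WT and KO in LPMC) of 3 libraries each, and total counts ran from 45.4 to 140.7 M (M for 1000000 reads). Every mouse had DSS, so no level here is that of an uninjured colon. Strain, age, the construction of the deleted allele and any pooling of animals are not stated in the labels. Whether replicates are different animals is not stated either; the spread that p-values are based on may therefore be partly technical.

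Lymphocytes leave the blood for the gut when the integrin made of the alpha 4 and beta 7 chains binds MAdCAM-1, an adhesion molecule on the venules of the gut and its lymphoid tissue. Chemokine receptors then set the destination. CCR9 follows CCL25, best known from the small intestine and thymus; CCR10 follows CCL28, made by mucosal epithelium and known for drawing plasma cells; CCR6 follows CCL20, made by inflamed and follicle-covering epithelium. GPR15 serves the large intestine and follows GPR15L, a small secreted protein of colonic and skin epithelium. Retinoic acid raises CCR9 and the integrin on T cells, and the aryl hydrocarbon receptor is known to raise GPR15.

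Bases upstream of Ccl20 and Madcam1 are shown because these had the lowest p-values of the 10 members in LPMC. Each run is the 250 bases before the annotated start in RefSeq's GRCm38.p6, read 5′ to 3′ on the gene's own strand. Ccl20's run lies at chr1:83116516-83116765 (plus strand) and that of Madcam1 at chr10:79664309-79664558 (plus strand). Neither run touches an exon of its gene in GENCODE M21. Capitals mark GGGA, any 4 bases and CC, the core of NF-kB sites, on either strand.
Ccl20: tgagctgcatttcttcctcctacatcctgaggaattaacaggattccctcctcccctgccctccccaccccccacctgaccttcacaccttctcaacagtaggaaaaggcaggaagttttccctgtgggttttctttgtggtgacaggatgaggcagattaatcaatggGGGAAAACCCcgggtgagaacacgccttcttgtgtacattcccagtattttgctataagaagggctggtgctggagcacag
Madcam1: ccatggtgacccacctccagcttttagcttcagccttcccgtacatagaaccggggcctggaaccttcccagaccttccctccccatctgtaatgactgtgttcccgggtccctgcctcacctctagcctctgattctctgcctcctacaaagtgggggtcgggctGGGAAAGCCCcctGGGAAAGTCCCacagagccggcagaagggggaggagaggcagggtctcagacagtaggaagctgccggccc
The Ccl20 window holds 1 match of the NF-kB core, 81 bases before the start. In the Madcam1 window there are 3, at 84, 71 and 70 bases, the last 2 overlapping almost wholly. The 9 members with a window have 11 windows in all, of which 4 hold this motif, against 17.6% of all 32851 windows. Besides these they are that of Ccr9 and 1 of the 2 of Ccr6. GCGTG, the core bound by the aryl hydrocarbon receptor, occurs in 28.2% of windows. Among them are that of Ccl20 (61 bases before the start) and 1 of the 2 of Ccl25. A match is a stretch of letters only. Ccr10 has no window in the table. That of Gpr15, the receptor whose ligand was removed, is not shown, since 198 of its 250 bases lie in the exon of Gpr15 as GENCODE M21 annotates it. In it AACCACA, a core recognised by Runx factors, has 2 matches, both within that exon, and 4.4% of all windows hold it.

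The deleted gene was checked first. Gpr15l has the symbol 2610528A11Rik (ENSMUSG00000096001, GRCm38 chromosome 14, bases 37102140 to 37114022, minus strand). Its level, in CPM (counts per 1000000 reads, scaled by edgeR's TMM factors), was 970, 363 and 614 in colon WT replicates 1, 2 and 3 and 292, 327 and 363 in LPMC WT. It was 0.228 CPM or less in all 6 KO libraries. Markers of cell types were read next, since LPMC should hold leukocytes. All 19 T cell markers were called higher in LPMC than in colon, against 25.4% of all genes, with a median log2 fold change of 3.29. Epithelial markers still summed to 11200 to 16000 CPM in LPMC libraries, against 19400 to 38200 CPM in colon. Colon WT replicate 1 stood apart in B cell markers, with a summed 1360 CPM against 3.38 to 31.2 CPM in the colon KO libraries. Colon KO replicate 2 was lowest of the colon libraries in T cell markers, and LPMC KO replicate 2 lowest of the LPMC libraries, each by mean log2 CPM (-0.86 and 2.66). By summed CPM, colon KO replicate 2 was also the highest colon library in epithelial (38200), smooth muscle (2250) and small intestinal epithelial markers (471). It was the lowest in endothelial (62.3) and monocyte and macrophage markers (146). Whether the tissue sampled differed was not tested. In bulk RNA, fewer cells of a type and less RNA per cell cannot be told apart.

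Gpr15 (ENSMUSG00000047293, chromosome 16 from 58717433 to 58719070, minus strand) is a gene of 1 exon whose last part overlaps exons of Cpox on the other strand. The strand setting of the counting is not stated, so reads from that stretch may belong to either gene, as in the overlaps named below for Ccr9, Itga4 and Ccl25. Counts of Gpr15 in colon were few. Colon WT libraries held 40, 8 and 12 counts and colon KO libraries 7, 0 and 36. These are 0.483, 0.186 and 0.172 CPM in WT, and 0.0754, 0 and 0.241 CPM in KO. The 0 of colon KO replicate 2 allows up to 0.0489 CPM (3 counts, counting error only), or 0.0979 CPM (6 counts) if both mates of a fragment were counted. In LPMC the WT libraries held 1.95, 1.44 and 1.03 CPM, and the KO libraries 1.67, 0.45 and 0.921 CPM. Every LPMC library but LPMC KO replicate 2 lay above all colon libraries, and KO and WT overlapped in both tissues. The ligand was thus far more abundant than its receptor: per kilobase of exon, the deleted gene averaged 784 ± 368 CPM (SD, n = 3) in colon WT, against 0.171 ± 0.107 for Gpr15.

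**Figure D1:**
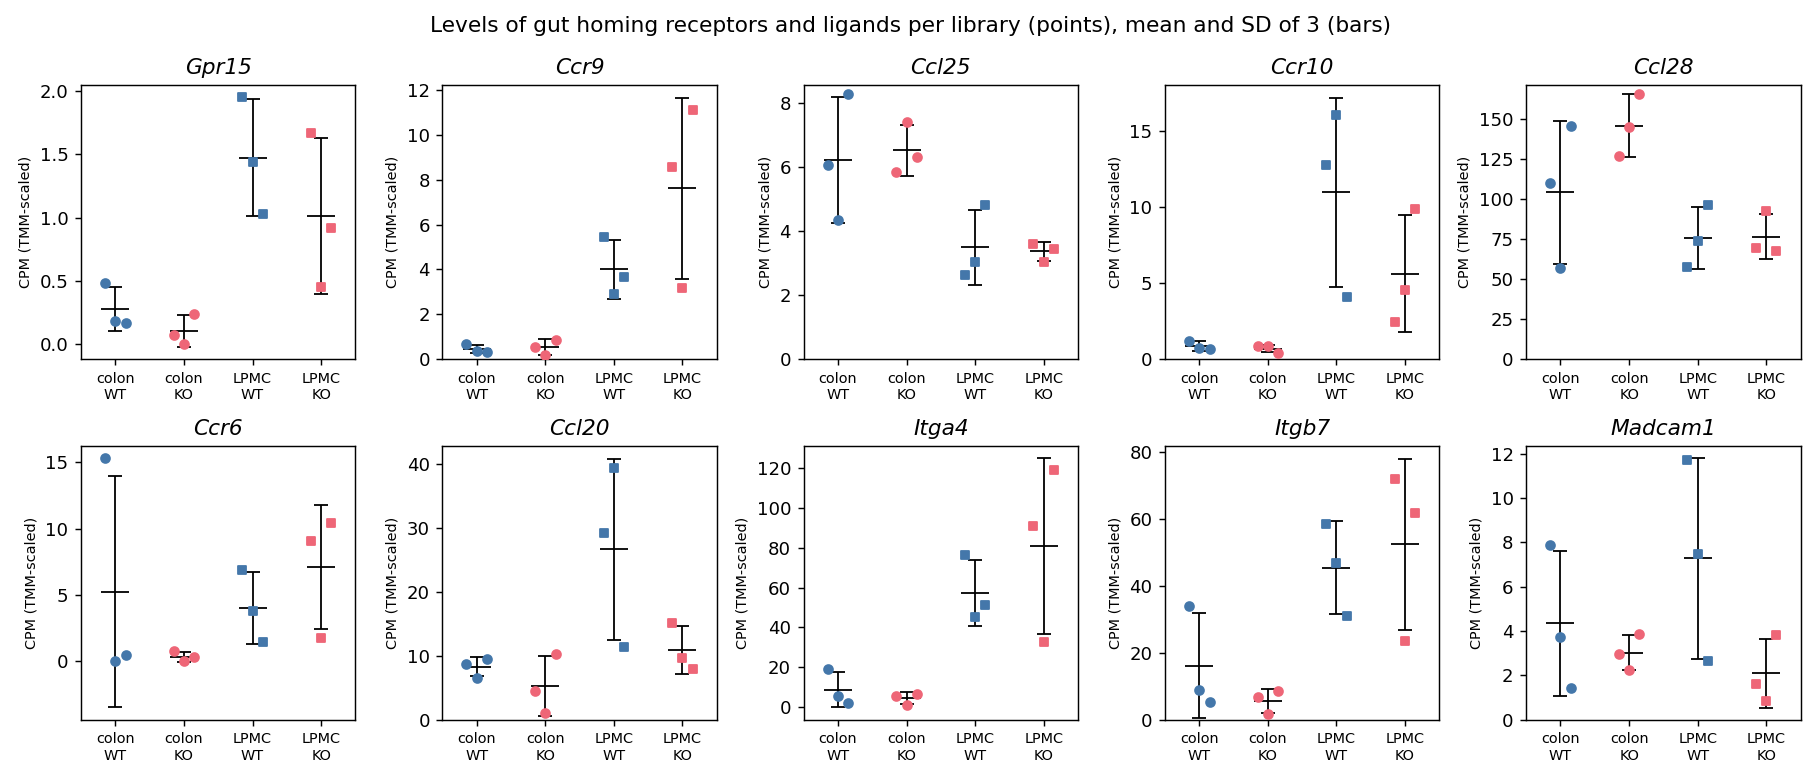
TMM-scaled CPM (vertical axis, linear, a separate range for each gene) of the 10 genes in the WT and KO libraries of colon (circles) and LPMC (squares); points are libraries, and bars are the mean and SD of 3. Colon WT replicate 1 stands far above the other colon libraries for Ccr6 (15.3 CPM), Itga4 (19 CPM) and Itgb7 (34.1 CPM), and most receptors are higher in LPMC than in colon.

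Ccr9 (ENSMUSG00000029530, chromosome 9 from 123678439 to 123784330) was scarce in colon too, with 12 to 130 counts per library. Its exons overlap those of Slc6a20a and AC165425.1 on the other strand and of Gm17200 on the same strand, so some of its reads are uncertain. It stood at 0.652, 0.372 and 0.315 CPM in colon WT and at 0.538, 0.196 and 0.87 CPM in colon KO. In LPMC the WT values were 5.44, 2.89 and 3.67 CPM, and the KO values 8.55, 3.18 and 11.1 CPM. Each LPMC library exceeded each colon library, and 2 of the 3 LPMC KO libraries exceeded all LPMC WT libraries.

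Ccr10 (ENSMUSG00000044052, chromosome 11 from 101172997 to 101175443) varied widely between LPMC libraries of a genotype. Colon levels were 1.22, 0.697 and 0.659 CPM in WT and 0.829, 0.848 and 0.395 CPM in KO. In LPMC they were 12.8, 16.1 and 4.06 CPM in WT and 2.42, 4.57 and 9.89 CPM in KO. Tissues did not overlap, while LPMC WT replicate 3 lay among the KO libraries. Plasma cell markers, given because CCR10 is known on these cells, were also lowest in replicate 3 among LPMC WT libraries and in replicate 1 among LPMC KO libraries: mean log2 CPM was 7.3, 7.21 and 6.37 in WT and 5.64, 6.02 and 7.22 in KO.

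Ccr6 (ENSMUSG00000040899, chromosome 17 from 8236043 to 8257141), carried by B cells and by T cells and innate lymphocytes that make IL-17, was dominated by a single colon library. Colon WT libraries held 15.3, 0 and 0.459 CPM, where the 0 of replicate 2 allows up to 0.0697 CPM, or 0.139 CPM if mates were counted separately, and colon KO libraries 0.764, 0.0326 and 0.301 CPM. LPMC levels were 6.88, 3.81 and 1.46 CPM in WT and 9.09, 1.75 and 10.4 CPM in KO. Mean log2 CPM of the 12 B cell markers followed the same order of extremes in colon: 6.59, -2.23 and 0.8 in WT, and 1.22, -2.05 and -0.51 in KO.

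The alpha 4 and beta 7 chains form the integrin that binds MAdCAM-1. Itga4 (ENSMUSG00000027009, chromosome 2 from 79255426 to 79333123) stood at 19, 5.41 and 2.21 CPM in colon WT and 5.68, 1.31 and 6.78 CPM in colon KO. In LPMC it stood at 76.1, 45 and 51 CPM in WT and at 90.7, 32.5 and 119 CPM in KO. No LPMC library fell to the colon range, and LPMC KO libraries lay both above and below all LPMC WT libraries. Itgb7 (ENSMUSG00000001281, chromosome 15 from 102215995 to 102231944, minus strand) held 34.1, 8.9 and 5.29 CPM in colon WT and 6.76, 1.6 and 8.62 CPM in colon KO. Its LPMC values were 58.5, 46.8 and 30.9 CPM in WT and 72, 23.6 and 61.8 CPM in KO. Colon WT replicate 1 thus reached into the LPMC range for Itgb7 but not for Itga4. Exons of Itga4 overlap those of Cerkl on the other strand.

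Madcam1 (ENSMUSG00000020310, chromosome 10 from 79664559 to 79668537) differs from the others in being made by vessels. Colon libraries held 7.9, 3.72 and 1.45 CPM in WT and 2.98, 2.25 and 3.85 CPM in KO. LPMC libraries held 11.7, 7.46 and 2.67 CPM in WT and 1.63, 0.838 and 3.83 CPM in KO. In LPMC, WT replicates 1 and 2 exceeded all KO libraries, and KO replicate 3 exceeded WT replicate 3, so the groups overlapped by that pair.

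Of the ligands, Ccl28 (ENSMUSG00000074715, chromosome 13 from 119623819 to 119654359) was the most abundant in colon, per kilobase of exon too. It held 110, 57.1 and 146 CPM in colon WT and 127, 145 and 166 CPM in colon KO, then 57.8, 73.7 and 96.1 CPM in LPMC WT and 69.3, 92.7 and 67.4 CPM in LPMC KO. Genotypes overlapped in both tissues, and colon WT replicate 2 fell below every LPMC library. Ccl25 (ENSMUSG00000023235, chromosome 8 from 4325210 to 4360020) varied less than 2-fold between the libraries of any group, with 6.06, 4.34 and 8.28 CPM in colon WT and 5.86, 7.42 and 6.33 CPM in colon KO. In LPMC it held 2.62, 3.05 and 4.82 CPM in WT and 3.6, 3.05 and 3.45 CPM in KO. Its exons overlap those of Elavl1 on the other strand.

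Ccl20 (ENSMUSG00000026166, chromosome 1 from 83116766 to 83119167) was the one ligand with more transcript in LPMC than in colon. It stood at 8.81, 6.6 and 9.54 CPM in colon WT and 4.44, 1.11 and 10.3 CPM in colon KO. In LPMC the WT values were 29.2, 39.5 and 11.4 CPM, and the KO values 15.2, 9.71 and 7.91 CPM. WT replicates 1 and 2 exceeded all KO libraries in LPMC, and WT replicate 3 lay within the KO range. Per kilobase of exon, the order of mean levels in LPMC WT began with Ccl20 (18.8 ± 10 CPM), Itgb7 (16.4 ± 5) and Ccl28 (15.7 ± 3.98; SD, n = 3 for each), which did not differ beyond their spread. It went on with Ccr10 (6.38 ± 3.62), Madcam1 (5.07 ± 3.15), Itga4 (4.1 ± 1.18), Ccr6 (1.75 ± 1.17), Gpr15 (0.902 ± 0.282), Ccl25 (0.47 ± 0.157) and Ccr9 (0.39 ± 0.127). In colon WT Ccl28 led at 21.6 ± 9.27, with Ccr9 again last at 0.0435 ± 0.0176. The length used joins all annotated exons of a gene, which can exceed the length of the transcript made. It was 10260 bases for Ccr9, 7445 for Ccl25 and 1638 for Gpr15. In CPM alone, Ccr9 (4 ± 1.3) and Ccl25 (3.5 ± 1.17) stood above Gpr15 (1.48 ± 0.461) in LPMC WT. The low places of Ccr9 and Ccl25 thus rest on that length.

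Whether other routes shift when Gpr15l is missing was asked first in colon. None of the 10 members was called there by edgeR's quasi-likelihood test with Benjamini-Hochberg adjustment over 19303 genes, of which 0.00518% were called (the deleted gene alone). At an unadjusted p under 0.05 the count was also 0 of 10, against 7.79% of all genes, and 0 of 10 had WT and KO libraries apart, against 14.3%. DESeq2 and limma voom likewise called none. Log2 fold changes of KO over WT were negative for 7 members and positive for 3 (50.5% of all genes were positive), with a median of -0.61, where the median over all genes tested was 0.00615. The receptor Gpr15 was at -1.33 (SE 1.02, adjusted p = 0.721). For the routes besides Gpr15, the lowest p-values were those of Ccr6 at -3.86 (SE 1.99, adjusted p = 0.645) and Itgb7 at -1.53 (SE 0.83, adjusted p = 0.656). The remaining estimates were -0.98 (SE 0.87) for Itga4, -0.67 (SE 0.69) for Ccl20, -0.55 (SE 0.60) for Madcam1, -0.34 (SE 0.47) for Ccr10, 0.06 (SE 0.31) for Ccl25, 0.25 (SE 0.61) for Ccr9 and 0.47 (SE 0.33) for Ccl28.

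Of the 7 negative estimates 4 turned positive without colon WT replicate 1, the library rich in B cell markers: Ccr6 was at 0.62, Itga4 at 0.26, Madcam1 at 0.22 and Ccr10 at 0.02, none of them called. Without that library and colon KO replicate 2 together, Itgb7 was at 0.10. Standard errors of 0.31 to 1.99 mean that changes of the size seen in most members could not be resolved in colon, and a missed threshold does not show that levels were alike.

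**Figure D2:**
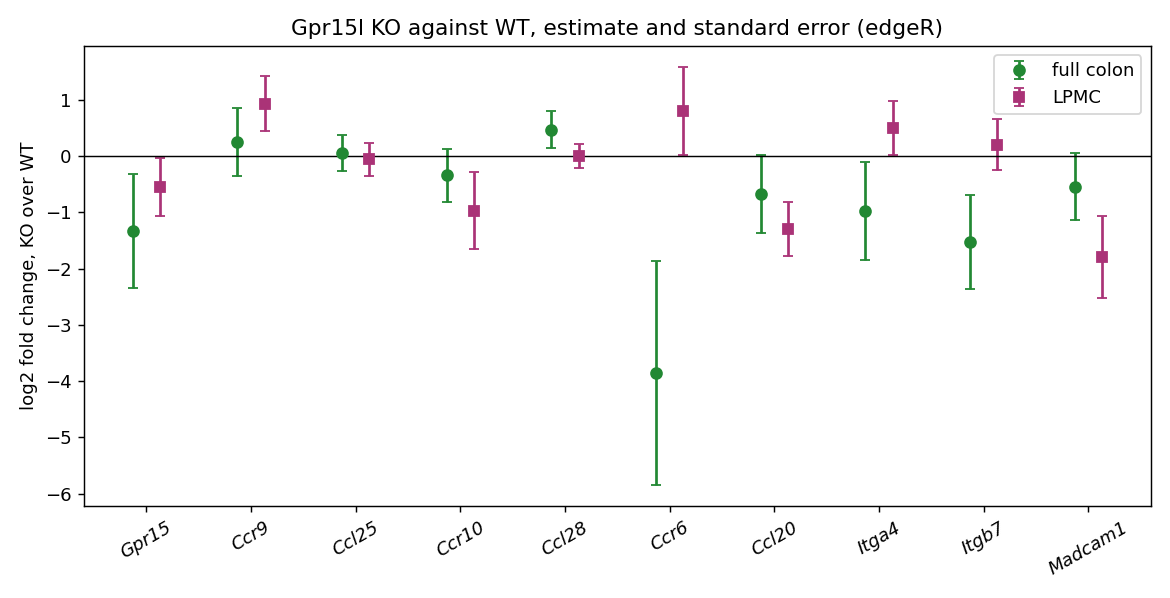
Log2 fold change of KO over WT (vertical axis) for the 10 genes in full colon (circles) and LPMC (squares), each from 3 libraries a genotype; bars are 1 standard error from edgeR. No point is called, and the estimate for Ccr6 in colon, -3.86 with a standard error of 1.99, has the longest bar.

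In LPMC again 0 of 10 members were called, against 0.0103% of 19426 genes, and no member had WT and KO libraries apart, against 7.41% of genes. At an unadjusted p under 0.05 there were 2 members, both lower in KO, where 2.64% of all genes were under 0.05 and 1.44% were lower. By edgeR's quasi-likelihood test these were Ccl20, at -1.30 on the log2 scale (SE 0.48, unadjusted p = 0.0333), and Madcam1, at -1.79 (SE 0.73, unadjusted p = 0.0484). Neither was called, the adjusted p being 0.998 for each. Group means were 26.7 ± 14.2 CPM in WT and 10.9 ± 3.78 CPM in KO for Ccl20, and 7.28 ± 4.52 and 2.1 ± 1.55 CPM for Madcam1 (SD, n = 3 each). All 6 fits that left out 1 LPMC library kept both negative, between -1.67 and -0.90 for Ccl20 and between -2.56 and -1.27 for Madcam1. The unadjusted p exceeded 0.05 in 4 of the 6 for each gene. DESeq2 and limma voom called no member in LPMC either, the adjusted p with DESeq2 being 0.754 for Ccl20 and 0.8 for Madcam1.

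For the receptors in LPMC the estimates ran in both directions. Gpr15 was at -0.54 (SE 0.52) and Ccr10 at -0.97 (SE 0.68), while Ccr9 was at 0.93 (SE 0.49) and Ccr6 at 0.80 (SE 0.79). The integrin chains were at 0.50 (SE 0.48) for Itga4 and 0.21 (SE 0.45) for Itgb7. Ccl25 was at -0.06 (SE 0.29), and Ccl28, the ligand of Ccr10, at 0.00 (SE 0.21), the smallest standard error between genotypes. Estimates were positive for 5 members, where 49.2% of all genes were, and negative for 5, with a median of -0.03 against -0.00412 over all genes tested. T cell markers were positive in 18 of 19 cases in LPMC KO and negative in 19 of 19 in colon KO, with medians of 0.51 and -1.09 and none called. In colon 7 of 19 were lower at an unadjusted p under 0.05 by edgeR, against 4.47% of all genes. Also 7 of 19 had all colon KO libraries below all WT libraries, against 6.53%. In LPMC 0 of 19 met either rule in either direction. The part of T cell content in the receptors' differences was not tested.

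The difference of the KO effect between tissues, fitted as an interaction on all 12 libraries, was called for 0 of 10 members and for 0% of 20989 genes by edgeR. The unadjusted p was under 0.05 for 0 members and for 4.69% of genes, and DESeq2 called no member. Ccr6 had the largest estimate, 4.63 (SE 2.30, adjusted p = 0.902), and it was -0.29 without colon WT replicate 1 and colon KO replicate 2. So the opposite signs in the 2 tissues of Ccr6, Itga4 and Itgb7 were not shown to differ.

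Receptor levels were also set against T cell markers within each library, as log2 CPM minus the mean log2 CPM of the 19 markers. For Gpr15 in LPMC this gave -2.94, -2.92 and -3.22 in WT and -3.91, -3.74 and -4.27 in KO. All KO libraries lay below all WT libraries, by 0.94 in the mean, as did 2.00% of the 19426 genes tested, and a further 0.515% lay wholly above. With Cd3e alone as the reference the difference was -0.88, again without overlap. In colon the values were -2.83, -2.86 and -2.64 in WT and -3.43, -4.59 and -2.32 in KO, where the lowest is the library with 0 counts and the highest exceeds all WT libraries.

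Ccr9 gave values in the other direction against the same markers. In colon it gave -2.41, -1.94 and -1.85 in WT and -0.91, -1.33 and -0.57 in KO, all KO libraries being above all WT libraries by 1.13 in the mean. The same held for 28.7% of all genes in colon, where T cell markers were negative as a list, and with Cd3e alone the groups overlapped (1.10). In LPMC the difference was 0.52, with overlap. Ccr10, Ccr6, Itga4 and Itgb7 overlapped between genotypes in both tissues, their mean differences in LPMC being -1.25, 0.43, 0.06 and -0.17.

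**Figure D3:**
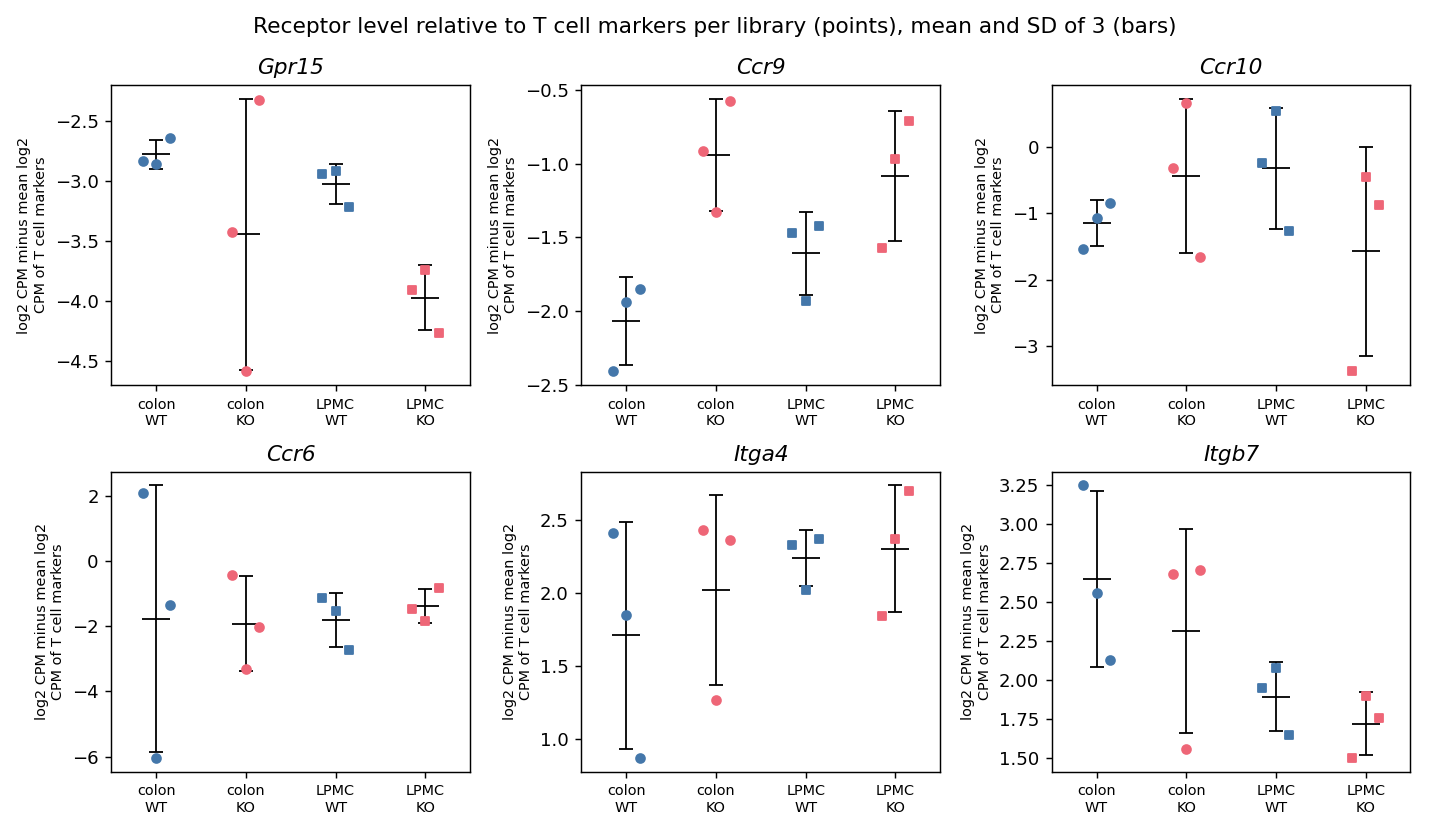
Log2 CPM of each of 6 receptor genes minus the mean log2 CPM of 19 T cell markers (vertical axis, a separate range for each gene) in the 4 groups; points are libraries, and bars are the mean and SD of 3. For Gpr15 the LPMC KO libraries (-4.27 to -3.74) lie below the LPMC WT libraries (-3.22 to -2.92), and for Ccr9 the colon KO libraries lie above the colon WT libraries.

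Other members were set against the cell types that are known to make them, a step chosen after seeing the data. Relative to 10 endothelial markers, Madcam1 in LPMC was at -1.85, -1.98 and -3.04 in WT and at -3.08, -4.2 and -3.19 in KO. The KO libraries lay below the WT libraries, if only just (-3.08 against -3.04), as did 0.273% of genes, while 6.58% lay above. The endothelial list itself was negative in 10 of 10 genes in LPMC KO (median -0.50, none called). In colon the difference for Madcam1 was -0.19, with overlap. Ccr10 relative to plasma cell markers overlapped in LPMC, with a difference of -0.31, as did Ccr6 relative to B cell markers, at 0.19. The ligands relative to epithelial markers overlapped in both tissues, with differences in LPMC of -0.98 for Ccl20, 0.21 for Ccl28 and 0.18 for Ccl25.

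Where each gene is found was asked by comparing LPMC with colon over both genotypes. Of the 10 members 6 were called higher in LPMC and 2 lower by edgeR's quasi-likelihood test, against 25.4% and 24.9% of 20989 genes. Among them 3 members (Ccr9, Ccr10 and Itga4) had all 6 LPMC libraries above all 6 colon libraries, as did 14.5% of genes. The median over the members was 2.14, and 0.00764 over all genes. The receptors led: Ccr9 was higher by 3.48 on the log2 scale (SE 0.44, adjusted p = 0.000104), Itga4 by 3.41 (SE 0.60, adjusted p = 0.000967), Ccr10 by 3.35 (SE 0.46, adjusted p = 0.000172), Gpr15 by 2.75 (SE 0.61, adjusted p = 0.00344) and Itgb7 by 2.35 (SE 0.54, adjusted p = 0.00481). These sizes stand beside that of the T cell markers (median 3.29), and the share that cell content has in them was not tested. Epithelial ligands were lower in LPMC, Ccl25 at -0.90 (SE 0.22, adjusted p = 0.00537) and Ccl28 at -0.70 (SE 0.21, adjusted p = 0.0181), and 7 of 10 epithelial markers were called lower with a median of -0.88.

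Ccl20 was called higher in LPMC, at 1.37 (SE 0.46, adjusted p = 0.0296), unlike the other 2 ligands. That call was lost with no filter on low counts (adjusted p = 0.0641) and without any 1 of 6 libraries, replicates 1 and 2 of colon WT and LPMC WT and replicate 1 of colon KO and LPMC KO (adjusted p of 0.0517 to 0.0723). Immediate early genes of dissociation stress were called higher in LPMC in 10 of 10 cases, against 25.4% of all genes, with a median of 4.32. Their part in the level of Ccl20, an inducible chemokine, was not tested. Ccr6, at 1.93 (SE 1.13, adjusted p = 0.178), and Madcam1, at 0.11 (SE 0.49, adjusted p = 0.876), were not called by edgeR. Ccr6 was called by limma voom (adjusted p = 0.0415), by edgeR without colon WT replicate 1, at 4.15 (adjusted p = 0.00738), and with the replicate block, at 3.23 (adjusted p = 0.0382); it was not by DESeq2 (adjusted p = 0.171). With the 6 WT libraries alone, 5 members were called in place of 8, namely Gpr15, Ccr9, Ccr10, Ccl20 and Itga4.

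**Figure D4:**
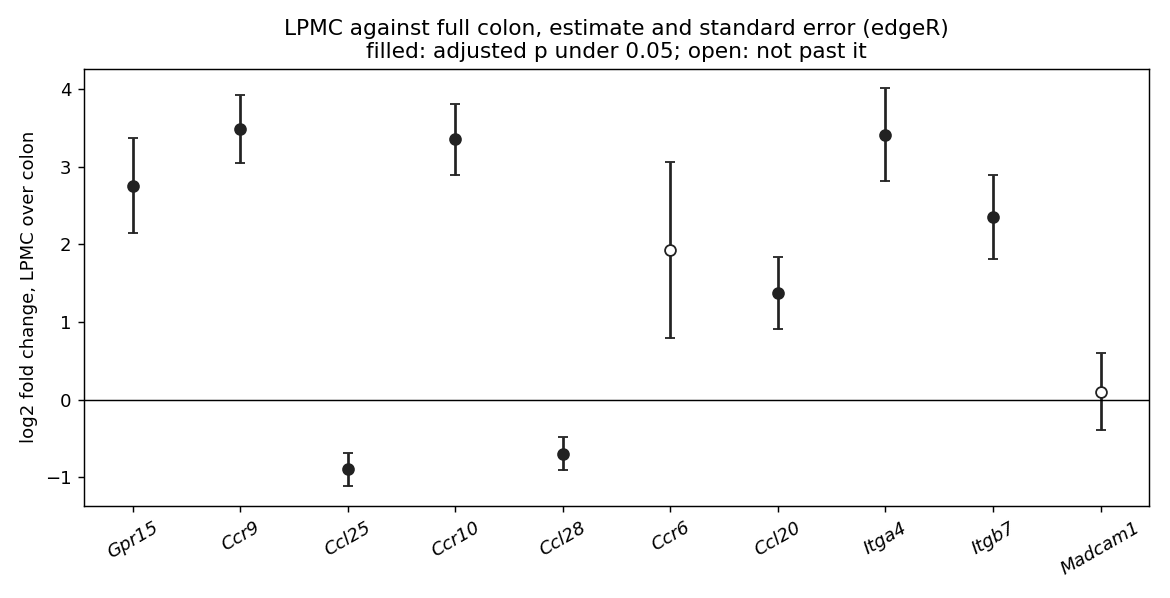
Log2 fold change of LPMC over full colon (vertical axis) for the 10 genes, averaged over both genotypes with 6 libraries a tissue; bars are 1 standard error from edgeR, and filled points are called at an adjusted p under 0.05. Of the 8 filled points 6 lie above 0, up to 3.48 for Ccr9, and those of Ccl25 and Ccl28 lie below it.

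The 2 integrin chains were set against each other in each library, a ratio chosen after seeing the data. The ratio of Itgb7 to Itga4, each per kilobase of exon, was 9.05, 8.29 and 12.1 in colon WT, 6, 6.18 and 6.41 in colon KO, 3.88, 5.26 and 3.06 in LPMC WT, and 4.01, 3.66 and 2.63 in LPMC KO. Every colon library lay above every LPMC library, a log2 difference of 1.08. The exact two-sided permutation p was 0.00216, the smallest that 6 against 6 can give. It is no separate support, since the ratio was chosen with the data seen. The permutation also took libraries as exchangeable, without regard to genotype or to any mouse shared between tissues. Within colon the KO libraries lay below the WT libraries, a log2 difference of -0.64. Its exact permutation p was 0.1, the smallest that 3 against 3 can give, and the choice of ratio limits it likewise. In LPMC the genotypes overlapped, with a difference of -0.23 (exact permutation p = 0.5). Among single genes, 14.3% had the genotypes apart in colon and 27.7% had the tissues apart. No share over other ratios was computed. The size of the ratio, unlike its differences between libraries, rests on the joined exon lengths, 2770 bases for Itgb7 and 13978 for Itga4. Both chains also pair elsewhere, Itga4 with the beta 1 chain and Itgb7 with the alpha E chain, so a transcript ratio does not give the amount of the gut integrin.

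Those partners and the other adhesion genes were read from a list of 14 integrins, selectins and their ligands, with 0 called between genotypes. Itgae, the alpha E chain that holds lymphocytes to epithelium, had an LPMC mean of 14.4 ± 3.83 CPM in WT against 7.7 ± 2.98 CPM in KO (SD, n = 3 each), and its estimate was -0.90 (SE 0.35, adjusted p = 0.998 by edgeR). Itgb1 was at -0.07 (SE 0.13). The vessel selectins Selp, at -1.50 (SE 0.72), and Sele, at -1.53 (SE 0.73), had negative estimates in LPMC like Madcam1. So had all 10 endothelial markers there (median -0.50, none called), and the part of endothelial content in the selectins' estimates was not tested. In colon Selp was at 2.39 (SE 0.98) and Sele at 1.19 (SE 1.06), each with overlap of the genotypes. Colon Selp ran from 0.344 to 1.76 CPM in WT and from 1.24 to 14.6 CPM in KO. Colon Sele was scarce, with means of 0.163 CPM in WT and 0.39 CPM in KO. In all, 10 of 14 estimates were negative in LPMC (median -0.19) and 7 of 14 in colon (median -0.17). Of these genes 9 of 14 were called higher in LPMC than in colon, against 25.4% of all genes, with a median of 1.85.

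Receptors for other chemokines and lipids were likewise not called between genotypes. In colon 11 of 14 tested were negative and 3 positive (median -0.62; 50.5% of all genes were positive), with the lowest p-values for the follicle receptor Cxcr5 (-4.34, SE 1.70), Gpr18 (-2.87, SE 1.18) and the widely used Cxcr4 (-2.58, SE 1.03). Cxcr5 ran from 0.465 to 48.6 CPM within colon WT alone. In LPMC 14 of 16 were positive (median 0.66), against 49.2% of all genes. The lowest p was that of Cxcr6, a receptor of tissue-resident lymphocytes, at 0.76 (SE 0.23, adjusted p = 0.998 by edgeR). Its means were 9.17 ± 0.911 CPM in WT against 15.5 ± 4.24 CPM in KO. Its KO libraries lay wholly above its WT libraries, as did those of 3.66% of all genes, and it was 1 of 16 to do so. Markers of myeloid cells, which carry Ccr1, Ccr2 and Cx3cr1 of this list, had positive estimates there too, none called. These were 11 of 12 for monocytes and macrophages (median 0.91, with Ccr2 itself among the 12) and 10 of 11 for neutrophils (median 1.86). At an unadjusted p under 0.05 by edgeR, 2 of the 12 and 6 of the 11 were higher in KO, against 1.20% of all genes. KO libraries lay wholly above WT libraries for 1 of the 12 and 0 of the 11, against 3.66%. Mean log2 CPM was 2.87 to 3.62 in WT and 2.72 to 4.49 in KO for the former, and 1.28 to 2.39 and 1.62 to 4.42 for the latter, and their part in the receptors' estimates was not tested. Between tissues 12 of 16 were called higher in LPMC (median 2.43), against 25.4% of all genes, including Ccr8 at 5.96 (SE 0.37) and Cxcr6 at 4.10 (SE 0.41). Among 16 ligands of these receptors none was called between genotypes. The lowest p was that of the eosinophil attractant Ccl11 in colon, at 1.75 (SE 0.63), and of Ccl22, which draws Ccr4-bearing T cells, in LPMC, at -1.56 (SE 0.55), and medians were -0.50 over the 14 tested in colon and 0.01 over the 15 tested in LPMC.

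Genes that set gut homing on lymphocytes, those of retinoic acid synthesis and response, the aryl hydrocarbon receptor and TGF-beta, were likewise not called between genotypes. Of 20 tested in colon 12 were negative (median -0.11), and of 21 in LPMC 8 (median 0.09). Cyp1b1, a target of the aryl hydrocarbon receptor, was at 1.52 (SE 0.62) in colon, and Aldh1a1, a maker of retinoic acid, at -0.74 (SE 0.32) in LPMC. Cyp1b1 was scarce in colon, with means of 0.0808 CPM in WT and 0.237 CPM in KO. Between tissues 15 of 21 were called higher in LPMC and 1 lower, against 25.4% and 24.9% of all genes. By edgeR, Ahr itself was higher by 1.46 (SE 0.14, adjusted p = 2.15e-05) and its target Tiparp by 1.59 (SE 0.14, adjusted p = 8.95e-06). Its other listed targets varied. In LPMC WT and KO, Cyp1b1 averaged 3.52 and 2.64 CPM, above its colon means. Ahrr averaged 0.541 and 0.643 CPM in colon WT and KO, and 0.832 and 0.552 CPM in LPMC. Cyp1a1 averaged 0.0191 and 0.0582 CPM in colon, and 0.225 and 0.0129 CPM in LPMC. The part of dissociation stress in these levels was not tested.

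Variation between libraries within a tissue was described by Pearson's r over the 12 libraries, on log2 CPM centred within each tissue; the libraries share their depth and cell content, so no test is given. Itga4 and Itgb7 went together most closely of the members (0.94), then Gpr15 with Itgb7 (0.89), Gpr15 with Ccl20 (0.85) and Ccr9 with Itga4 (0.82). Ligand and receptor of a route did not track each other closely: r was -0.13 for Ccr9 with Ccl25, -0.30 for Ccr10 with Ccl28 and 0.35 for Ccr6 with Ccl20. Madcam1 was closest to Ccr10 (0.71), and Ccl25 to Ccl28 (0.74). Against marker lists, Ccr6 followed B cell markers (0.97), Itgb7 and Gpr15 T cell markers (0.94 and 0.84), Madcam1 endothelial markers (0.83) and Ccr10 plasma cell markers (0.69). Ccr10 did not stand out in the last, since r with plasma cell markers was 0.75 for Ccr6 and 0.69 for Madcam1. Ccr9 was closer to monocyte and macrophage markers (0.90), regulatory T cell markers (0.86) and neutrophil markers (0.84) than to T cell markers (0.73), the reference it was set against above.

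**Figure D5:**
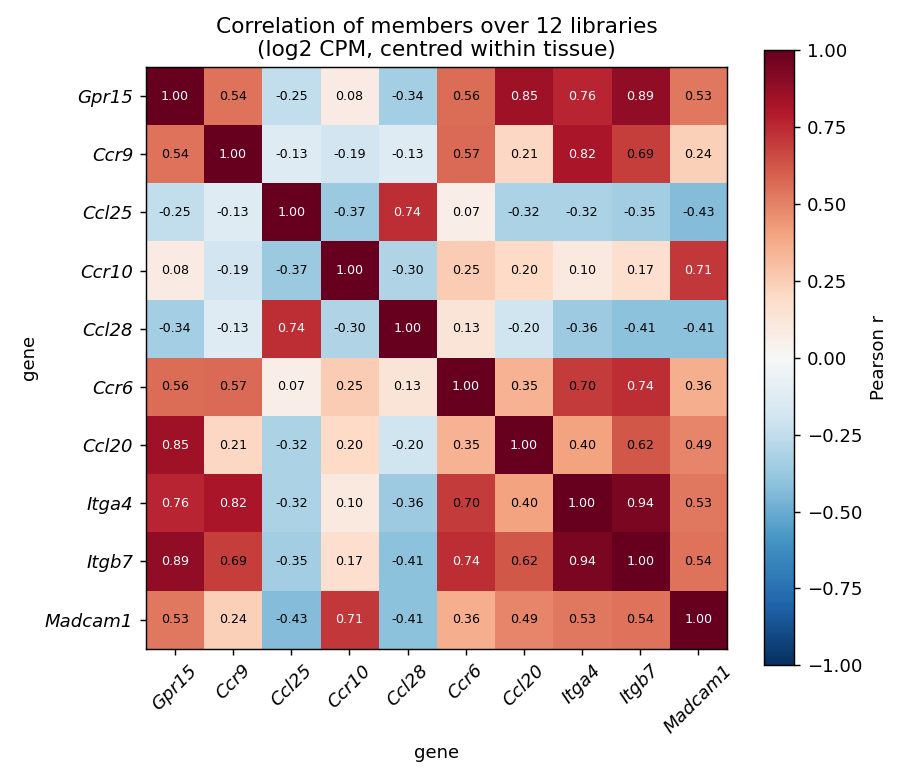
Pearson's r between each pair of the 10 genes over 12 libraries, on log2 CPM centred within tissue (both axes list the genes; red is positive, blue negative). Itga4, Itgb7, Gpr15, Ccr9 and Ccr6 form a block of positive values from 0.54 to 0.94, and Ccl25 and Ccl28 pair with each other at 0.74.

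Among 12161 genes whose log2 CPM averaged 1 or more, those most like each member over the same 12 libraries are given as a description. Itgb7 was closest to Parvg (0.994), Myo1g (0.994) and the lymphoid factor Ikzf1 (0.992), and Itga4 to Celf2 (0.992), Cyth4 (0.992) and Tlr7 (0.991). Ccr6 was closest to the B cell genes Bank1 (0.979) and Pax5 (0.978) and to Chst3 (0.974). Ccr9 was closest to the myeloid genes Cd33 (0.983) and Ccr1 (0.972) and to Zfp281 (0.957), and Gpr15 to Cotl1 (0.921), Vav1 (0.908) and Rgs14 (0.906). Madcam1 was closest to Adgrg6 (0.98), Trpv4 (0.907) and Ehd3 (0.881), and Ccr10 to Col13a1 (0.834), Derl3 of the plasma cell list (0.826) and Mb21d2 (0.779). Among ligands, Ccl20 was closest to Krt36 (0.966), Tnip3 (0.922) and Nccrp1 (0.921), Ccl28 to Papss1 (0.973), Erlin2 (0.966) and Tnfsf13 (0.963), and Ccl25 to the pseudogene Mpc1-ps (0.933), Zfp235 (0.893) and Map2k5 (0.882).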

How the data were processed

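Per the labels' protocols, the TruSeq kit used for the mRNA libraries keeps strand, and an Illumina HiSeq was the sequencer. The submitters' processing notes name STAR and the build mm10 (GRCm38). Which tool counted reads, on which annotation and strand setting, and in which versions, was not given in the sources used. The values deposited are raw counts per Ensembl gene, in 1 table for all libraries; 54042 of 54109 identifiers matched GENCODE M21. Low counts were mostly even (66.6 to 76.6% of values from 1 to 20), the pattern of mates counted separately, so counting error exceeds what the counts imply.

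From these counts, edgeR 4.0.16 in R 4.3.3 (TMM, filterByExpr with a minimum count of 10, robust quasi-likelihood F-test) gave log2 fold changes, called at a Benjamini-Hochberg adjusted p under 0.05 over all genes tested. The genotypes were compared within a tissue (6 libraries), whereas the interaction and LPMC against colon used all 12. All 10 members passed the filter in each fit. A standard error is the size of the log2 fold change divided by the square root of F. DESeq2 1.42.0 and limma 3.58.1 (voom) were alternatives, with other scaling, no filter, counts halved, the replicate number as a block and each library left out. The steps were tested on simulated data. Log2 CPM used a prior count of 2.

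The members, lists and tests were chosen with earlier results of these data known. Besides the members, genes named are the deleted gene, up to 4 of each list by lowest p, and the 3 most like each member. Itgb1 was added to these for its pairing with Itga4, and Ccr1, Ccr2 and Cx3cr1 as myeloid receptors. Ahrr and Cyp1a1 were added as further targets of the aryl hydrocarbon receptor, and Cpox, Slc6a20a, AC165425.1, Gm17200, Elavl1 and Cerkl for overlapping exons.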

Additional observations from a re-analysis of the deposited data

How the results depend on the processing

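No member was called between genotypes, in either tissue or in the interaction, under any alternative run, and 469 of 499 alternative log2 fold changes kept their sign. In colon, fits without 1 library spanned 0 for Ccr10 (-0.52 to 0.016), Ccr6 (-4.89 to 0.62), Itga4 (-1.41 to 0.26), Madcam1 (-0.94 to 0.22), Ccl25 (-0.14 to 0.33) and Ccr9 (-0.28 to 0.65). In LPMC they did so for Ccl28 (-0.16 to 0.21), Ccl25 (-0.22 to 0.24) and Itgb7 (-0.072 to 0.56), in the interaction for Ccl25 (-0.38 to 0.18) and Ccl20 (-1.11 to 0.29), and between tissues for Madcam1 (-0.27 to 0.49). Without colon WT replicate 1 and colon KO replicate 2 together, a choice made after seeing the data, the colon estimates were -0.064 for Ccl25, 1.10 for Ccr6, 0.70 for Itga4, 0.10 for Itgb7 and 0.40 for Madcam1. The interaction was then -0.42 for Gpr15, -0.12 for Ccr9, -0.29 for Ccr6 and -0.24 for Itga4. In LPMC, Ccl28 was at -0.0033 with DESeq2 and with its size factors, and Ccl25 at 0.051 with voom and at 0.32 without LPMC WT replicate 3 and LPMC KO replicate 2, chosen likewise. With WT libraries alone Ccr6 was at -0.41 between tissues, and 5 members were called in place of 8, Ccl25, Ccl28 and Itgb7 no longer passing. Without 1 library 7 or 8 were called. The cause of these shifts was not tested, beyond the fewer libraries that some fits hold. Over all genes, colon calls (1) became 32 with DESeq2, 2 with all 12 libraries in the fit, and 0 without colon KO replicate 2. LPMC calls (2) became 34 with DESeq2, 4 with no filter, 1 when replicate 1 of either LPMC genotype was left out, and 5 without the pair of LPMC libraries. Interaction calls (0) became 3 with DESeq2, and tissue calls (10549) became 6393 with WT libraries alone.

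Whether replicate numbers pair colon and LPMC libraries of 1 mouse is not stated, and correlations did not settle it. Those of same-numbered deviations were 0.042, -0.133 and -0.093 between colon WT and KO, and 0.24, -0.06 and -0.23 between LPMC WT and KO. They were all positive between tissues, at 0.135, 0.081 and 0.163 in WT and 0.064, 0.303 and 0.182 in KO. Different-numbered values between tissues ran from -0.218 to 0.05 in WT and from -0.257 to 0.191 in KO. Across genotypes, r reached 0.374 (LPMC WT replicate 3 with LPMC KO replicate 2). The interaction and LPMC against colon took all 12 libraries as independent, so any such pairing was ignored there. With the replicate block 0 members were called between genotypes, 0 genes in colon and 0 in LPMC, and 9 members between tissues, adding Ccr6 at 3.23 (adjusted p = 0.0382 by edgeR). Depth limits Gpr15 most, with 0 to 40 counts in colon libraries.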
